A study of Mus musculus with 24 samples.

Results

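Liver RNA of male C57BL/6 mice aged 2 months was captured in a pair of ways, and the RNAs recovered with a metabolite cap were compared with all capped RNAs of the same tissue. The comparison took the mouse genes of 6 libraries out of the 24 of the study: 3 labelled as capturing all-capped RNAs and 3 labelled as capturing NCIN-capped RNAs. Of 55416 mouse genes in the count table, 13124 had enough counts to be tested, and the other 42292 were not described. All 6 libraries were made from polyadenylated RNA, with RNAiso Plus extraction and a Vazyme TruePrep kit, and the labels name no genetic change and no treatment. The labels number the libraries 1 to 3 in each group but do not say that the numbers are separate mice, so p-values measure the spread between these samples, which may be technical. The other 18 libraries, given here only as side-by-side values, were 6 each from set 3C and set 3D, also male C57BL/6 liver at 2 months, and 6 from male C57BL/6 liver at 18 months, which shared the fit.

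Most messenger RNAs of animals begin with a 7-methylguanosine (m7G) cap, which protects the RNA and recruits the translation machinery. A non-canonical initiating nucleotide (NCIN) cap is a metabolite, such as NAD or dephospho-coenzyme A, that an RNA polymerase places at the first position in place of a nucleoside triphosphate. NAD and dephospho-coenzyme A both contain adenosine, so such a cap is expected on RNAs that begin with adenosine. Enzymes of the DXO and NUDIX families remove these caps. The liver makes and uses much NAD and coenzyme A, and its hepatocytes secrete most plasma proteins.

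Library totals lay between 19200694 and 21168079 counts, of which 11130984 to 18995264 fell on mouse genes. Fly genes, counted in the same table, held 10.2% to 14.7% of the counts of the all-capped libraries and 35.4% to 42.0% of those of the captured libraries. Mitochondrially encoded genes held 0.493% to 0.921% of the mouse counts in the all-capped and 7.31% to 10.3% in the captured libraries. The 10 hepatocyte markers were all tested and together reached 116981 to 164547 normalised CPM in the all-capped and 55172 to 62372 CPM in the captured libraries. CPM are counts per 1000000 mouse counts after scaling by the trimmed mean of M-values (TMM). After this scaling the genes tested summed to 1316858, 1540758 and 1350488 CPM in the all-capped libraries. In the captured libraries they summed to 781667, 858931 and 803090 CPM. Summed levels, here and below, are therefore not shares of a library. Differences are log2 fold changes of captured over all-capped. A positive difference therefore means a gene was over-represented among captured RNAs relative to the typical gene, not that its capped share was high in absolute terms.

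Captured and all-capped RNA differed widely. Of the genes tested, 8052 (61.4%) passed an adjusted p of 0.05 in edgeR's quasi-likelihood test with Benjamini-Hochberg adjustment. They were split into 4186 higher (31.9%) and 3866 lower (29.5%) in captured RNA. All genes tested had a median log2 fold change of 0.14. In 4500 genes (34.3%) every captured library lay above every all-capped library, and in 4251 (32.4%) every captured library lay below. The split depends on the scaling. It was 6176 higher and 2243 lower with library size alone, 12202 and 12 with the 0% spike-in, 10393 and 129 with the spike-in total, and 747 and 6403 with fly genes. The median log2 fold change of all genes then moved to 0.92, 3.90, 2.71 and -1.22. A scaling shifts all genes of a library together, so each list below is read against the median of all genes.

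**Figure D1:**
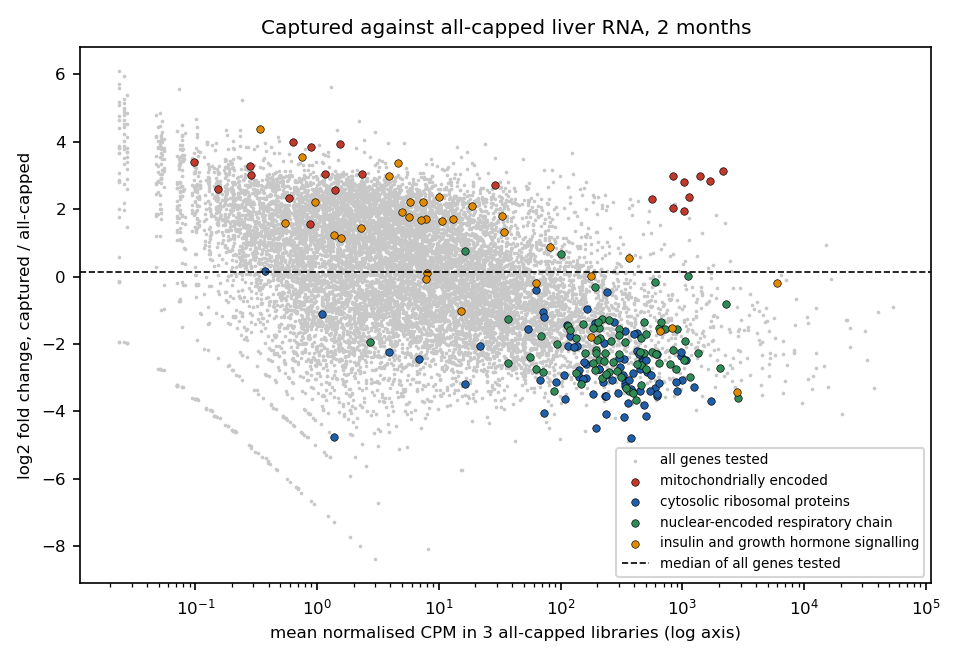
Log2 fold change of captured over all-capped RNA (vertical axis) against the mean normalised CPM of the 3 all-capped libraries (horizontal log axis), 1 point per gene for 13034 of the genes tested; the 90 genes with a mean of 0 in all-capped libraries are not drawn. Mitochondrially encoded genes lie above the dashed line, the median of all genes at 0.14, and nearly all cytosolic ribosomal protein genes lie below it.

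The difference varied with how abundant a gene was. Genes were sorted into 5 equal bins by their mean level over both groups. In the most abundant bin 25.4% were higher and 56.9% lower, with a median log2 fold change of -0.79. In the middle bin 44.4% were higher and 23.9% lower, with a median of 0.56. The medians for complement, coagulation, the urea cycle, the citric acid cycle and cytochromes P450 lay nearer the most abundant bin than all genes. The same held for their shares of lower genes. Cytosolic ribosomal proteins lay far below the median of that bin. Lists were not compared with genes of like abundance, so the part of abundance in their differences was not tested. By locus type in RefSeq's GRCm38.p6 annotation, 12452 genes had a match. Of 11650 protein-coding genes 33.2% were higher and 29.1% lower, with a median of 0.19. The 463 long non-coding RNA genes had 10.2% higher and 36.7% lower (median -1.08), and the 279 annotated pseudogenes 7.89% higher and 56.99% lower (median -1.91). Reads of pseudogenes and of close gene copies can be split between loci by the counting, so values for these classes are uncertain.

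**Figure D2:**
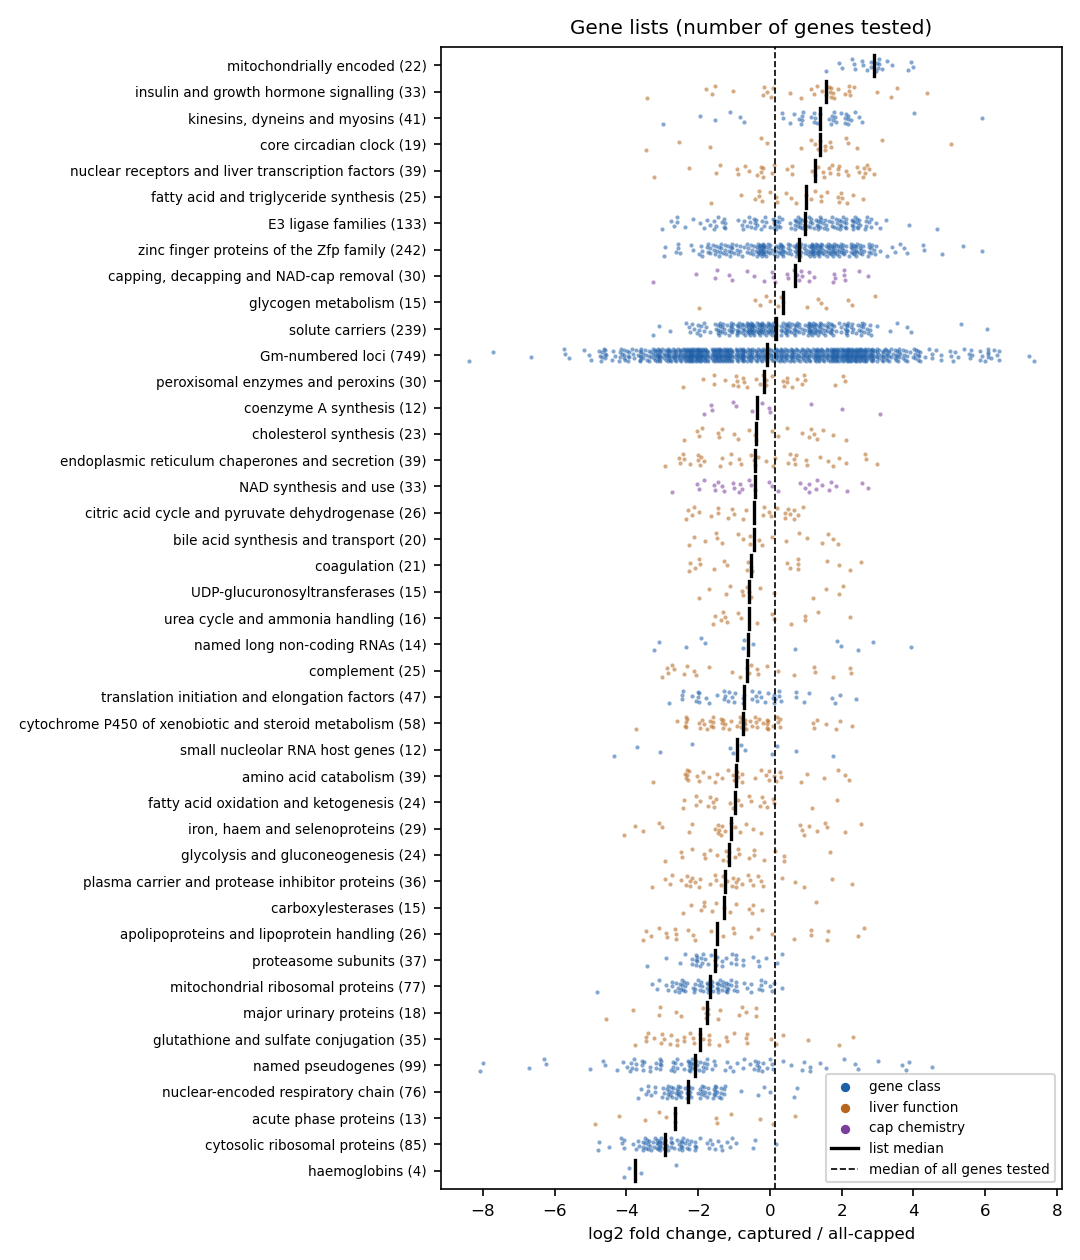
Log2 fold change of captured over all-capped RNA for the members of each gene list, 1 point per gene, with the list median as a black bar and the median of all genes as a dashed line; the number of genes tested is in brackets. Medians ran from 2.89 for mitochondrially encoded genes to -3.76 for haemoglobins.

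Mitochondrially encoded RNAs were the gene class with the highest median. The mitochondrial genome encodes subunits of the respiratory chain and the rRNAs and tRNAs of the organelle, and its RNAs are made by a separate RNA polymerase and do not receive an m7G cap in the nucleus. All 22 tested members were higher in captured RNA and none was lower, with a median log2 fold change of 2.89 against 0.14 for all genes. mt-Co1, a subunit of cytochrome oxidase, had 2656, 1671 and 2142 CPM in the all-capped and 18024, 20209 and 17933 CPM in the captured libraries. The groups were well separated, with a log2 fold change of 3.12 ± 0.27 (SE, edgeR adjusted p = 3.25e-08). mt-Nd2, a subunit of complex I, had 2128, 1314 and 1616 CPM in the all-capped and 12962, 11303 and 11416 CPM in the captured libraries. Its captured libraries were close to each other and all above the all-capped ones, at 2.82 ± 0.21 (SE, edgeR adjusted p = 5.35e-09). mt-Nd5, another complex I subunit, varied far more between libraries, with 1270.5, 198 and 2680.3 CPM in the all-capped and 3181, 8534 and 20982 CPM in the captured libraries. The groups still did not overlap, and the difference was 2.98 ± 0.66 (SE, edgeR adjusted p = 0.000825). The smallest differences were 1.55 for mt-Co3, a cytochrome oxidase subunit counted at only 0.869 CPM on average in all-capped libraries, and 1.93 for the large rRNA mt-Rnr2. Neighbouring mitochondrial genes are cut from shared precursors, and whether counting used the strand is not given in the sources used here.

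RNAs for the respiratory chain that are encoded in the nucleus went the other way. Of 76 tested, 71 were lower in captured RNA and 2 were higher, and the median was -2.27. Cox6a1, a nuclear subunit of cytochrome oxidase, had 2761, 3456 and 2382 CPM in the all-capped and 242, 251 and 220.2 CPM in the captured libraries. Its groups were far apart, at -3.59 ± 0.18 (SE, edgeR adjusted p = 1.17e-10). Uqcrh, a subunit of complex III, had 398, 466 and 382 CPM in the all-capped and 33.7, 29.1 and 34.8 CPM in the captured libraries, a difference of -3.67 ± 0.20 (SE, edgeR adjusted p = 2.09e-10). The members higher in captured RNA were Sdha, the flavoprotein of complex II, at 0.67 ± 0.19 (SE, edgeR adjusted p = 0.00485), and Ndufs1, of complex I, at 0.76 ± 0.22 (SE, edgeR adjusted p = 0.0065). Without captured replicate 1 only 1 of the list was higher, since Ndufs1 no longer passed. The ribosomal proteins of the mitochondrion were lower in 68 of 77 and higher in none (median -1.66). Mrps34, of its small subunit, had 103, 94.3 and 97.3 CPM in the all-capped and 4.62, 2.93 and 2.80 CPM in the captured libraries, a difference of -4.82 ± 0.23 (SE, edgeR adjusted p = 5.74e-11).

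Cytosolic ribosomal protein RNAs had the lowest median among gene classes with more than 4 tested genes. Of 91 genes, 85 were tested, 81 were lower, none was higher and 4 did not pass, and the median was -2.91. Rps21, of the small subunit, had 377, 419 and 335 CPM in the all-capped and 13.4, 13.4 and 14.0 CPM in the captured libraries. The captured values were nearly equal and all far below the all-capped values, at -4.79 ± 0.20 (SE, edgeR adjusted p = 4.26e-11). Rplp0, of the ribosomal stalk, had 1526, 2017 and 1654 CPM in the all-capped and 135, 129 and 141 CPM in the captured libraries. The difference was -3.68 ± 0.16 (SE, edgeR adjusted p = 4.81e-11), and Rps2 and Rpl37 were at -3.27 and -4.48. Ribosomal protein genes have many processed pseudogenes, which can take or lend reads.

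Other lists of protein synthesis and turnover also had more lower than higher members. Translation initiation and elongation factors were lower in 25 of 47 and higher in 6 (median -0.71). Eef1a1, which brings aminoacyl-tRNA to the ribosome, had 3047, 4573 and 5279 CPM in the all-capped and 1052, 976 and 1169.7 CPM in the captured libraries, at -2.01 ± 0.24 (SE, edgeR adjusted p = 1.33e-06). The scaffold Eif4g1, which binds the cap-binding protein, was higher instead, with 56.1, 56.00 and 65.3 CPM in the all-capped and 204, 229 and 254 CPM in the captured libraries. Its difference was 1.95 ± 0.18 (SE, edgeR adjusted p = 5.02e-08). Eif4ebp3, which holds back the cap-binding protein, was among the genes lowered most, at -4.50 ± 0.31 (SE, edgeR adjusted p = 2.23e-09). Proteasome subunits were lower in 32 of 37 and higher in none (median -1.53), led by the immunoproteasome subunits Psmb9 at -3.42 and Psmb10 at -2.89. With the replicate number as a block 1 was higher.

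Synthetic spike-in RNAs with a stated NAD-capped share give a scale for these differences. For this scale each captured library's share of mouse counts was divided by the mean share in the 3 all-capped libraries, without TMM scaling. The ratios were 0.138, 0.119 and 0.114 for the 0% spike-in, 0.237, 0.265 and 0.235 at 1%, 0.454, 0.401 and 0.427 at 5%, and 1.54, 1.70 and 1.71 at 20%. The 4 spike-ins did not overlap in any captured library. Over the genes tested the median ratios in the 3 captured libraries were 1.87, 1.62 and 1.80. They were above the 20% spike-in in libraries 1 and 3 and below it in library 2. Cytosolic ribosomal protein RNAs had median ratios of 0.245, 0.211 and 0.264 in the 3 captured libraries, around the 1% spike-in, and 6 of the 85 were at or below the 0% spike-in in each. Mitochondrially encoded RNAs had 9.50, 12.8 and 13.5, beyond the range of the spike-ins. In every captured library 119 genes (0.91%) were at or below the 0% spike-in and 5543 (42.2%) were at or above the 20% spike-in. Whether liver RNAs are captured like the spike-ins was not tested.

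**Figure D3:**
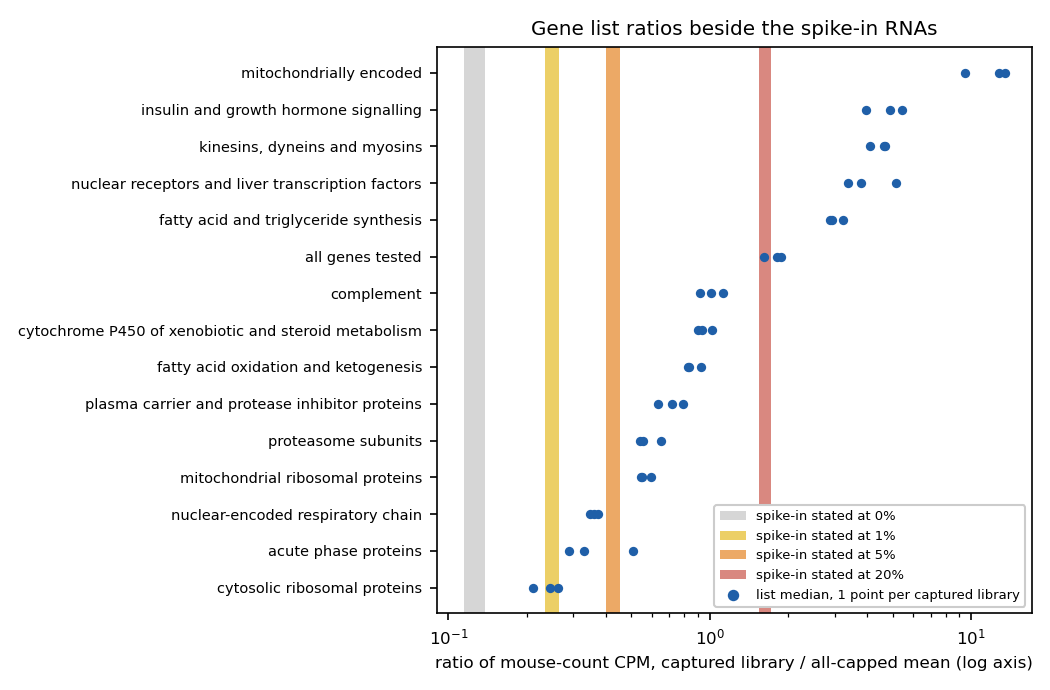
Median ratio of captured to all-capped mouse-count CPM for 14 gene lists and all genes tested (horizontal log axis), 1 point per captured library, with the range of each spike-in as a vertical band. Cytosolic ribosomal protein RNAs lie around the band of the 1% spike-in, and mitochondrially encoded RNAs lie to the right of the 20% spike-in.

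The 8 genes that rose most under the naming rule included regulators of signalling and transcription. Irs1, which couples the insulin receptor to phosphoinositide 3-kinase, had 0.233, 0 and 0.783 CPM in the all-capped and 8.99, 8.03 and 5.36 CPM in the captured libraries. All captured values exceeded all all-capped ones, as the naming rule required, at 4.37 ± 0.61 (SE, edgeR adjusted p = 7.94e-06). Its all-capped level was close to 0, so it passed the count filter through captured libraries and the size of its difference is uncertain. Ets1, a transcription factor, had 1.63, 2.49 and 2.49 CPM in the all-capped and 69.8, 50.04 and 43.1 CPM in the captured libraries, a difference of 4.62 ± 0.45 (SE, edgeR adjusted p = 1.15e-07). Zfp266, a zinc finger protein, had 5.21, 1.25 and 2.56 CPM in the all-capped and 80.5, 50.2 and 44.6 CPM in the captured libraries, at 4.27 ± 0.39 (SE, edgeR adjusted p = 5.28e-08). Mfsd4a, of a transporter superfamily, reached the highest difference of the 8, at 5.24 ± 0.81 (SE, edgeR adjusted p = 2.21e-05), from 0.242 to 9.18 CPM on average. Like that of Irs1, its all-capped level was close to 0, so the size of this difference is uncertain. The remaining ones were the membrane protein Tmem170b at 4.35, the glycosyltransferase Mgat5 at 4.04, the mitochondrial methionine tRNA mt-Tm at 3.98 and Gtf2a1, of the general transcription factor TFIIA, at 3.95.

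The 8 genes that fell most included metal-binding, secreted and ribosomal proteins. Mt1, a metallothionein that binds zinc and copper, had 418, 445 and 212 CPM in the all-capped and 11.3, 15.99 and 9.44 CPM in the captured libraries. Every captured value was far below every all-capped value, at -4.88 ± 0.30 (SE, edgeR adjusted p = 5.49e-10). Crip1, a LIM domain protein, had 16.4, 19.03 and 10.9 CPM in the all-capped and 0.2997, 0.0772 and 0.426 CPM in the captured libraries, at -5.74 ± 0.45 (SE, edgeR adjusted p = 7.02e-09). Sertad1, a regulator of transcription and of the cell cycle, had 33.5, 56.99 and 36.3 CPM in the all-capped and 0.839, 1.93 and 1.58 CPM in the captured libraries, at -4.87 ± 0.32 (SE, edgeR adjusted p = 1.22e-09). Mup18, a major urinary protein, was lower at -4.57, beside Mrps34, Rps21, Eif4ebp3 and Rpl37, given above.

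Insulin and growth hormone signalling had the highest median of the liver functions. In this pathway the hormones bind receptors at the cell surface, and kinases and adaptors pass the signal to metabolism and growth. Of 33 tested, 21 were higher and 4 lower, and the median log2 fold change was 1.58. Beside Irs1, Pik3cb, a catalytic subunit of phosphoinositide 3-kinase, had 0.622, 0.997 and 0.640 CPM in the all-capped and 13.01, 7.88 and 5.54 CPM in the captured libraries, at 3.54 ± 0.42 (SE, edgeR adjusted p = 1.03e-06). The 4 lower members are all secreted. They were the growth factor Igf1 at -1.54 ± 0.22 (SE, edgeR adjusted p = 8.11e-06) and its carriers Igfbp2 at -3.41 ± 0.25 (SE, edgeR adjusted p = 3.32e-09), Igfbp1 at -1.78 ± 0.41 (SE, edgeR adjusted p = 0.00105) and Igfals at -1.60 ± 0.19 (SE, edgeR adjusted p = 1.4e-06). Igf1 and Igfals were picked out after their values were seen. Igfbp2, which binds insulin-like growth factors in plasma, had 2218, 3257 and 2875 CPM in the all-capped and 179.8, 268 and 336 CPM in the captured libraries.

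Nuclear receptors and liver transcription factors were higher in 21 of 39 and lower in 7, with a median of 1.27. Hnf4a, a master regulator of hepatocyte genes, had 58.5, 43.1 and 58.4 CPM in the all-capped and 303, 298 and 373 CPM in the captured libraries. Every captured library exceeded every all-capped one, at 2.60 ± 0.19 (SE, edgeR adjusted p = 4.41e-09). Thrb, a thyroid hormone receptor, had 7.39, 8.31 and 6.97 CPM in the all-capped and 62.3, 58.9 and 46.9 CPM in the captured libraries, at 2.89 ± 0.23 (SE, edgeR adjusted p = 9.5e-09). Nr1i3, the xenobiotic receptor CAR, fell instead, with 45.04, 47.5 and 51.7 CPM in the all-capped and 5.87, 4.25 and 5.30 CPM in the captured libraries, at -3.22 ± 0.23 (SE, edgeR adjusted p = 2.36e-09). Nr0b2, a repressor induced by bile acids, was also lower, at -2.27 ± 0.36 (SE, edgeR adjusted p = 3.21e-05). The core circadian clock had 13 of 19 higher and 3 lower (median 1.39). The lower ones were Dbp, an output regulator, Ciart, a repressor, and Nr1d1, the repressor REV-ERB alpha of the clock's feedback loop. Nr1d1 no longer passed with library size alone. Dbp had 100.1, 501 and 398 CPM in the all-capped and 12.6, 33.4 and 45.2 CPM in the captured libraries. Replicate 1 was the lowest in both groups, and the difference was -3.45 ± 0.54 (SE, edgeR adjusted p = 2.83e-05). The labels of these samples give no hour of collection.

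Motor proteins and ubiquitin ligases were also among the higher classes. Kinesins, dyneins and myosins had 23 of 41 higher and 2 lower (median 1.39), and the lower count was 0 without all-capped replicate 3 or captured replicate 2 and 1 without all-capped replicate 2 or, of 30 tested, with only the 6 libraries. Myh9, a non-muscle myosin, had 26.5, 27.9 and 16.9 CPM in the all-capped and 101, 72.5 and 72.6 CPM in the captured libraries, at 1.79 ± 0.37 (SE, edgeR adjusted p = 0.000421). E3 ubiquitin ligase families had 66 of 133 higher and 24 lower (median 0.97). Genes with a Zfp symbol, mostly zinc finger proteins, had 88 of 242 higher (36.4%) and 25 lower (10.3%), with a median of 0.82. Over all genes tested 31.9% were higher and 29.5% lower. The higher share of the Zfp genes was thus near that of all genes, and their lower share was smaller. The Zfp median relative to all genes was 0.68, and 0.44 without captured replicate 1. It was 0.78 for the 108 Zfp genes with at least 10 counts in each of the 6 libraries. The most abundant member, Zfp36, which destabilises inflammatory mRNAs, was lower at -2.49 ± 0.36 (SE, edgeR adjusted p = 9.64e-06). Solute carriers, with 88 of 239 higher and 47 lower, had a median of 0.18, close to that of all genes.

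**Figure D4:**
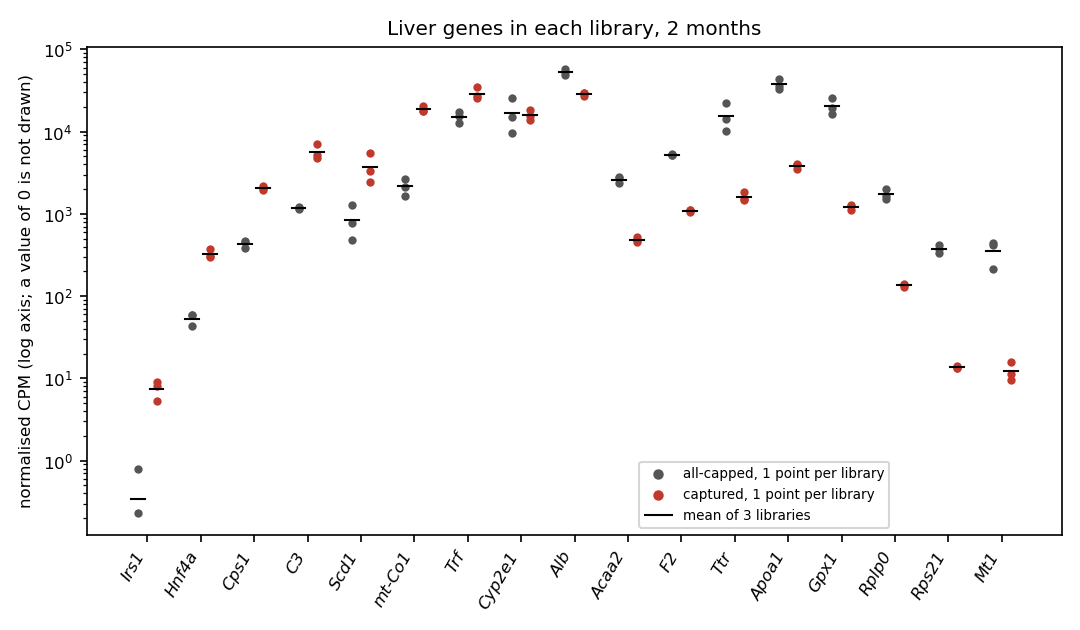
Normalised CPM (vertical log axis) of 17 liver genes in each of the 3 all-capped (grey) and 3 captured (red) libraries, with group means as bars. Irs1, Hnf4a, Cps1, C3, Scd1, mt-Co1 and Trf are higher in captured RNA, Cyp2e1 overlaps between groups, and the genes from Alb to Mt1 are lower.

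Secreted plasma proteins were mostly lower, albumin among them. Of 36 carriers and protease inhibitors, 26 were lower and 4 higher (median -1.25). Alb, serum albumin, was the most abundant RNA of the all-capped libraries, with 49034, 57439 and 53112 CPM in the all-capped and 29368, 29067 and 27292 CPM in the captured libraries. In normalised CPM it was lower in each captured library, at -0.90 ± 0.16 (SE, edgeR adjusted p = 9.81e-05). Ttr, which carries thyroid hormone and retinol-binding protein, had 10140.0, 22163 and 14326 CPM in the all-capped and 1503, 1464 and 1862 CPM in the captured libraries, a larger difference of -3.27 ± 0.25 (SE, edgeR adjusted p = 5.29e-09). Trf, transferrin, was the most abundant RNA on average in captured libraries, with 17076, 12854 and 15448 CPM in the all-capped and 26831, 34699 and 25451 CPM in the captured libraries. It was higher in captured RNA, at 0.94 ± 0.21 (SE, edgeR adjusted p = 0.000927). The broad protease inhibitors Pzp and Mug1 were higher too. Pzp had 346, 424 and 346 CPM in the all-capped and 1576, 2367 and 1496 CPM in the captured libraries, at 2.29 ± 0.22 (SE, edgeR adjusted p = 7.29e-08), and Mug1 was at 1.72 ± 0.27 (SE, edgeR adjusted p = 2.93e-05). With library size alone as the scaling, Alb and Serpina1e, an alpha-1 antitrypsin whose close copies can share reads, no longer passed (edgeR adjusted p = 0.481 and 0.45). The log2 fold change of Alb relative to all genes was then -1.03, beside a median of all genes of 0.92. Its share of the mouse counts therefore changed little.

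Within other plasma protein systems the members moved both ways. Complement had 14 of 25 lower and 6 higher (median -0.64). C3, the central component, had 1195, 1184 and 1149 CPM in the all-capped and 5188, 7033 and 4757 CPM in the captured libraries, and rose by a log2 fold change of 2.27 ± 0.22 (SE, edgeR adjusted p = 9.3e-08). Hc, component C5, was at 2.24 ± 0.18 (SE, edgeR adjusted p = 1.25e-08). The lowest members were a pair of lectin pathway genes. Masp2, a protease of that pathway, had 673, 933 and 739.6 CPM in the all-capped and 80.4, 108 and 102 CPM in the captured libraries, at -3.02 ± 0.18 (SE, edgeR adjusted p = 3.97e-10), and Mbl1, a mannose-binding lectin, was at -2.87 ± 0.17 (SE, edgeR adjusted p = 4.15e-10). Coagulation factors had 11 of 21 lower and 6 higher (median -0.53). F5, the cofactor of the prothrombin-cleaving complex, had 63.2, 53.8 and 64.9 CPM in the all-capped and 264, 349 and 245 CPM in the captured libraries, at 2.24 ± 0.19 (SE, edgeR adjusted p = 1.74e-08). F2, prothrombin itself, had 5144, 5175 and 5288 CPM in the all-capped and 1042, 1114 and 1101 CPM in the captured libraries, and fell at -2.26 ± 0.16 (SE, edgeR adjusted p = 2.54e-09). Serpinc1, antithrombin, was at -2.22 ± 0.15 (SE, edgeR adjusted p = 1.68e-09). Acute phase proteins were lower in 10 of 13 and higher in 1 (median -2.64). Hamp2, a hepcidin, had 227, 214 and 403 CPM in the all-capped and 11.7, 12.4 and 21.9 CPM in the captured libraries, at -4.19 ± 0.33 (SE, edgeR adjusted p = 9.5e-09), while Saa4 was the member that was higher, at 0.69 ± 0.16 (SE, edgeR adjusted p = 0.00108).

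Lipoprotein genes moved both ways. Of 26 tested, 16 were lower and 6 higher (median -1.47). Several apolipoproteins were lower. Apoa1, the main protein of high-density lipoprotein, had 36036, 43787 and 33072 CPM in the all-capped and 3477, 3878 and 4001 CPM in the captured libraries. The groups did not overlap, and the difference was -3.31 ± 0.17 (SE, edgeR adjusted p = 1.17e-10). Apoc3, an inhibitor of triglyceride clearance, was at -3.45 ± 0.23 (SE, edgeR adjusted p = 1.24e-09), Apom at -3.53 ± 0.19 (SE, edgeR adjusted p = 1.74e-10) and Apoe at -1.63 ± 0.18 (SE, edgeR adjusted p = 6.17e-07). The transporter Abca1, which loads cholesterol onto apolipoprotein A1, had 9.18, 3.99 and 4.34 CPM in the all-capped and 43.7, 35.5 and 28.98 CPM in the captured libraries, and was higher at 2.63 ± 0.34 (SE, edgeR adjusted p = 2.91e-06). The sorting receptor Sort1 was higher at 2.46 ± 0.37 (SE, edgeR adjusted p = 1.52e-05).

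Lipid synthesis genes were mostly higher and lipid oxidation genes mostly lower. Fatty acid and triglyceride synthesis had 15 of 25 higher and 1 lower (median 1.02); with the replicate number as a block, 4 were lower. The lower count was 0 without all-capped replicate 3 or captured replicate 2, and 2 without all-capped replicate 1 or captured replicate 3, under DESeq2 and in the fit of only the 6 libraries. Scd1, the stearoyl-CoA desaturase, had 772, 484 and 1287 CPM in the all-capped and 3316, 2428 and 5475 CPM in the captured libraries. Its levels varied in parallel in both groups without overlap, at 2.14 ± 0.32 (SE, edgeR adjusted p = 1.7e-05). Gpam, which starts glycerolipid synthesis, had 29.9, 22.3 and 30.2 CPM in the all-capped and 154, 175 and 166 CPM in the captured libraries, at 2.59 ± 0.18 (SE, edgeR adjusted p = 2.7e-09). Fatty acid oxidation and ketogenesis had 16 of 24 lower and 2 higher (median -0.96), and only 1 was higher without all-capped replicate 2 or captured replicate 1. Acaa2, the thiolase of mitochondrial oxidation, had 2771, 2728 and 2340.1 CPM in the all-capped and 459, 526 and 475 CPM in the captured libraries, at -2.42 ± 0.15 (SE, edgeR adjusted p = 6.41e-10). Cpt1a, the carnitine transferase that admits fatty acids to the mitochondrion, was higher, at 1.18 ± 0.23 (SE, edgeR adjusted p = 0.000256). Peroxisomal enzymes and peroxins had 11 of 30 lower and 8 higher (median -0.15), with 4 higher without all-capped replicate 2 and 5 without captured replicate 1. Differences between these lists were not tested.

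Cholesterol and bile acid genes were mixed. Cholesterol synthesis had 9 higher and 10 lower of 23 (median -0.38). Insig1, which retains the sterol sensor in the endoplasmic reticulum, had 230.4, 204 and 217 CPM in the all-capped and 846, 952 and 1048 CPM in the captured libraries, at 2.13 ± 0.18 (SE, edgeR adjusted p = 2.59e-08). Ebp, a sterol isomerase, had 689, 908 and 713 CPM in the all-capped and 126, 169.5 and 145 CPM in the captured libraries, at -2.39 ± 0.17 (SE, edgeR adjusted p = 2.33e-09). Bile acid synthesis and transport had 6 higher and 10 lower of 20 (median -0.43). The canalicular pumps Abcb11 and Abcc2 were higher at 1.76 ± 0.20 (SE, edgeR adjusted p = 6.64e-07) and 1.89 ± 0.22 (SE, edgeR adjusted p = 1.05e-06). The synthesis enzymes Cyp8b1 and Cyp27a1 were lower at -2.10 ± 0.17 (SE, edgeR adjusted p = 1.14e-08) and -1.82 ± 0.23 (SE, edgeR adjusted p = 2e-06).

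Most lists of carbohydrate and amino acid enzymes had more lower than higher members. Glycolysis and gluconeogenesis had 16 of 24 lower and 1 higher (median -1.15); with the replicate number as a block 3 were higher, and with only the 6 libraries 2. Fbp1, which controls gluconeogenesis, had 3574, 3425 and 3732 CPM in the all-capped and 490.2, 412 and 516 CPM in the captured libraries, at -2.92 ± 0.19 (SE, edgeR adjusted p = 1.03e-09). Glycogen metabolism had 7 of 15 higher and 1 lower (median 0.36). The citric acid cycle had 13 of 26 lower and 5 higher (median -0.43). Amino acid catabolism had 24 of 39 lower and 6 higher (median -0.95). Hpd, of tyrosine breakdown, had 7624, 8889 and 8466 CPM in the all-capped and 1555, 1816 and 1801 CPM in the captured libraries, at -2.27 ± 0.17 (SE, edgeR adjusted p = 4.43e-09), and Gnmt, which uses S-adenosylmethionine, was at -2.30 ± 0.19 (SE, edgeR adjusted p = 1.85e-08). The urea cycle had 8 of 16 lower and 5 higher (median -0.59). Cps1, its entry enzyme, had 458, 383 and 463 CPM in the all-capped and 1945, 2034 and 2188 CPM in the captured libraries. It was higher at 2.24 ± 0.18 (SE, edgeR adjusted p = 1.35e-08). Ass1, a later enzyme of the cycle, had 5914, 5521 and 8019.7 CPM in the all-capped and 4952, 6956 and 8339.5 CPM in the captured libraries. Its groups overlapped, and the difference did not pass, at 0.06 ± 0.21 (SE, edgeR adjusted p = 0.822).

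Lists of genes for foreign compounds and their conjugation had more lower than higher members. Glutathione and sulfate conjugation had 24 of 35 lower and 3 higher (median -1.95). Gstp1, a glutathione transferase, had 10045, 9578 and 9147 CPM in the all-capped and 663, 689 and 779.5 CPM in the captured libraries. The captured values were all far lower, at -3.75 ± 0.16 (SE, edgeR adjusted p = 4.26e-11). The enzyme Gclc, which limits glutathione synthesis, was higher at 2.32 ± 0.22 (SE, edgeR adjusted p = 9.91e-08). Cytochromes P450 had 28 of 58 lower and 4 higher (median -0.76). Cyp2e1, which oxidises ethanol, had 9671, 25329 and 15246 CPM in the all-capped and 13958, 18298 and 15289 CPM in the captured libraries. The groups overlapped and the difference did not pass, at -0.08 ± 0.29 (SE, edgeR adjusted p = 0.826). Cyp2d26 was lower at -2.60 ± 0.19 (SE, edgeR adjusted p = 4.14e-09) and Cyp2u1 was higher at 1.94 ± 0.22 (SE, edgeR adjusted p = 8.18e-07). UDP-glucuronosyltransferases had 6 of 15 lower and 3 higher (median -0.57), carboxylesterases 10 of 15 lower and 1 higher (median -1.29), and major urinary proteins 14 of 18 lower and none higher (median -1.76). These are families of close copies, and reads may be split among members.

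Iron, haem and selenoprotein genes had 19 of 29 lower and 9 higher, with a median of -1.10. Gpx1, the selenoprotein glutathione peroxidase, had 16225, 25502 and 19635 CPM in the all-capped and 1118, 1259 and 1279 CPM in the captured libraries, among the largest differences of any abundant gene, at -4.07 ± 0.19 (SE, edgeR adjusted p = 5.74e-11). Selenow was at -3.76 ± 0.17 (SE, edgeR adjusted p = 4.81e-11). Hamp, hepcidin, the hormone that blocks iron export, had 4960.5, 10849 and 4985 CPM in the all-capped and 581, 1230.0 and 609 CPM in the captured libraries, at -3.10 ± 0.32 (SE, edgeR adjusted p = 2.57e-07). Slc40a1, ferroportin, the iron exporter that hepcidin binds, went the other way, with 24.4, 11.96 and 14.4 CPM in the all-capped and 113, 99.2 and 84.3 CPM in the captured libraries, at 2.54 ± 0.28 (SE, edgeR adjusted p = 5.88e-07). Chaperones and secretion genes of the endoplasmic reticulum were split, with 14 higher and 18 lower of 39 (median -0.42). Canx, the membrane-bound lectin chaperone calnexin, had 129.8, 89.9 and 79.2 CPM in the all-capped and 1181, 662 and 509 CPM in the captured libraries, at 2.98 ± 0.29 (SE, edgeR adjusted p = 1.17e-07), while its soluble relative Calr, calreticulin, had 2974, 3904 and 3229 CPM in the all-capped and 580.3, 685 and 627 CPM in the captured libraries, at -2.42 ± 0.16 (SE, edgeR adjusted p = 1.31e-09).

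The genes that make, use or remove the cap metabolites were themselves mixed. NAD synthesis and use had 12 higher and 13 lower of 33 (median -0.42). In the pathway that builds NAD from tryptophan, Haao had 1478, 1718 and 1675 CPM in the all-capped and 209, 236 and 284 CPM in the captured libraries, at -2.74 ± 0.17 (SE, edgeR adjusted p = 5.61e-10), and Qprt was lower too, at -1.97 ± 0.17 (SE, edgeR adjusted p = 3.36e-08). Nadk2, the mitochondrial NAD kinase, was higher at 2.72 ± 0.36 (SE, edgeR adjusted p = 4.14e-06). Among NAD-consuming deacylases, Sirt3 of the mitochondrion was lower at -2.04 ± 0.17 (SE, edgeR adjusted p = 1.67e-08) and Sirt1 of the nucleus was higher at 2.58 ± 0.77 (SE, edgeR adjusted p = 0.00802). Coenzyme A synthesis had 3 higher and 5 lower of 12 (median -0.37). The pantothenate kinases Pank3 and Pank2, which start the pathway, were higher at 3.07 ± 0.43 (SE, edgeR adjusted p = 6.94e-06) and 2.02 ± 0.36 (SE, edgeR adjusted p = 0.000106). Ppcs, the second enzyme, was lower at -1.85 ± 0.19 (SE, edgeR adjusted p = 2.69e-07), and Coasy, whose product includes dephospho-coenzyme A, was lower at -0.93 ± 0.20 (SE, edgeR adjusted p = 0.000567) but no longer passed with library size alone. Capping and decapping genes had 13 higher and 6 lower of 30 (median 0.71). Dxo, which removes NAD caps, had 66.7, 70.5 and 52.4 CPM in the all-capped and 22.3, 22.6 and 21.1 CPM in the captured libraries, at -1.52 ± 0.19 (SE, edgeR adjusted p = 2.35e-06). Cnot1, the scaffold of the main deadenylase, was higher at 2.74 ± 0.24 (SE, edgeR adjusted p = 2.47e-08).

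Markers of other cells were lower where they passed in 4 of the 6 other cell types listed, while endothelial and stellate cell markers had members in both directions. These values set captured against all-capped RNA of bulk liver and do not measure numbers of cells or RNA per cell. Hepatocyte markers had 3 higher and 6 lower of 10 (median -0.92). Kupffer cell and macrophage markers had 7 of 11 lower and none higher (median -1.62), with summed levels of 505 to 998 CPM in all-capped and 225 to 294 CPM in captured libraries. With the replicate number as a block 9 were lower and 1 higher. C1qa, C1qb and C1qc, the chains of complement C1q, were lower at -2.12, -2.30 and -2.68. Csf1r, the receptor of the macrophage growth factor, had 34.3, 62.1 and 56.8 CPM in the all-capped and 36.2, 68.7 and 52.7 CPM in the captured libraries. It did not pass, at 0.04 ± 0.37 (SE, edgeR adjusted p = 0.932). Endothelial markers had 5 higher and 4 lower of 10 (median 0.35), and 2 were lower without all-capped replicate 2, without all-capped replicate 3 or without captured replicate 1. Dnase1l3, an endonuclease of sinusoidal endothelium, had 886, 956 and 782 CPM in the all-capped and 3739, 4526 and 3420.0 CPM in the captured libraries, at 2.15 ± 0.32 (SE, edgeR adjusted p = 1.55e-05). Stellate cell markers had 3 higher and 4 lower of 11 (median 0.32), and Ecm1 was lower at -3.01 ± 0.21 (SE, edgeR adjusted p = 1.76e-09). Cholangiocyte markers had 3 of 7 lower and none higher (median -1.02). Lymphocyte markers had 8 of 10 lower and none higher (median -2.18), and 4 or 5 were lower without all-capped replicate 2 or without captured replicate 1. Neutrophil and erythroid markers had 8 of 9 lower (median -3.59) and summed to 519 to 694 CPM in all-capped and 122 to 136 CPM in captured libraries. In the fit of only the 6 libraries, 5 of 6 neutrophil and erythroid and 5 of 7 lymphocyte markers tested were lower. Hba-a1, a haemoglobin chain, had 84.1, 111 and 70.1 CPM in the all-capped and 5.04, 5.25 and 5.54 CPM in the captured libraries, at -4.07 ± 0.37 (SE, edgeR adjusted p = 5.37e-08). The part of these cells in the liver lists was not tested.

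Letters around the annotated start were compared between higher and lower genes, since an NAD or dephospho-coenzyme A cap is expected where RNA begins with adenosine. RefSeq promoters (GRCm38.p6, 250 bases before to 50 after the start) were found for 9754 genes tested, of which 7746 had exactly 1 start and were used. The first base was A in 25.9% of 2440 higher genes, 30.1% of 2399 lower genes and 28.5% of all 7746, against 36.3% of the 22862 single-start promoters in the table. It was G in 50.7% of higher and 43.7% of lower genes. Genes starting with A were 28.5% higher and 32.6% lower, with a median log2 fold change of -0.09, and genes starting with G were 34.2% higher and 29.0% lower, with a median of 0.21. Annotated starts are not starts measured in these libraries, and an RNA can begin a few bases away. To show this position, the 60 bases from 40 before the start to 20 after it, with the first transcribed base in capitals, are printed 5′ to 3′ for genes with the largest changes, abundant plasma proteins and abundant ribosomal proteins.
Irs1, higher (chr1:82291420-82291479, strand -): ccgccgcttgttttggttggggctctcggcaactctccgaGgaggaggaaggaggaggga
Tmem170b, higher (chr13:41605842-41605901, strand +): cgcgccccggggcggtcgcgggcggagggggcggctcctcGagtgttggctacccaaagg
Mfsd4a, higher (chr1:132068043-132068102, strand -): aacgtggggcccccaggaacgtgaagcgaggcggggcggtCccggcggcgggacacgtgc
Zfp266, higher (chr9:20521400-20521459, strand -): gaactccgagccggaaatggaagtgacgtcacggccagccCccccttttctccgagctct
Mt1, lower (chr8:94179049-94179108, strand +): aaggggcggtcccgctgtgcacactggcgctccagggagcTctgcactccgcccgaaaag
Crip1, lower (chr12:113151972-113152031, strand +): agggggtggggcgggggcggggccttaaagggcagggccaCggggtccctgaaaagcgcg
Sertad1, lower (chr7:27486913-27486972, strand +): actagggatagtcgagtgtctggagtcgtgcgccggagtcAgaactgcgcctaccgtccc
Mup18, lower (chr4:61674075-61674134, strand -): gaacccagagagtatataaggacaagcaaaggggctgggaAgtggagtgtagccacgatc
Alb, lower (chr5:90460830-90460889, strand +): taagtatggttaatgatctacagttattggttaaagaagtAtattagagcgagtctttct
Serpina1e, lower (chr12:103956878-103956937, strand -): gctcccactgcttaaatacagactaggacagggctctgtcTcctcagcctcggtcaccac
Rplp0, lower (chr5:115559427-115559486, strand +): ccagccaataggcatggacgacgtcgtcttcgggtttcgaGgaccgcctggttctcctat
Rps2, lower (chr17:24720023-24720082, strand +): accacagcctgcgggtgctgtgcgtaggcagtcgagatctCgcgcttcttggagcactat
Of these, the 4 higher genes begin with C or G. Of the 8 lower genes, Sertad1, Mup18 and Alb begin with A, Mt1 and Serpina1e with T, Crip1 and Rps2 with C, and Rplp0 with G. Ribosomal protein genes often begin with C and a run of pyrimidines. Among the 53 with 1 start the first base was C in 37.7%, and C followed by 4 further pyrimidines stood at the start of 13 (24.5%), against 2.47% of all single-start promoters.

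Promoters of higher genes held more CpG. The motif searched was CG, which reads the same on both strands, over the 300 bases. The median was 26 CpG in higher, 17 in lower and 20 in uncalled genes, against 7 over all single-start promoters, and the median GC content was 65.0%, 57.7% and 60.3%. Over 10 equal bins of log2 fold change the median rose from 14 in the lowest bin to 27 in the highest. The single-start genes tested were also sorted anew into 5 equal bins of abundance. The difference was present in each of these bins, with 23 against 8 in the least abundant and 24 against 17 in the most abundant. The letters TATAAA, on either strand between 40 and 15 bases before the start, were in 30 higher genes (1.23%), 59 lower genes (2.46%) and 2.92% of all single-start promoters. Gene lists differ in CpG. The median was 28 CpG for 19 genes of insulin and growth hormone signalling, and 25 for 19 nuclear receptors and liver transcription factors. It was 3 for plasma carriers and 2 for cytochromes P450, but 21 for the cytosolic ribosomal proteins, which were also lower. The Zfp genes, with more higher than lower members, had a median of 16. The 250 bases before the start of a CpG-rich and 2 CpG-poor genes are printed with each CG in capitals.
Tmem170b upstream, 42 CpG (chr13:41605632-41605881, strand +): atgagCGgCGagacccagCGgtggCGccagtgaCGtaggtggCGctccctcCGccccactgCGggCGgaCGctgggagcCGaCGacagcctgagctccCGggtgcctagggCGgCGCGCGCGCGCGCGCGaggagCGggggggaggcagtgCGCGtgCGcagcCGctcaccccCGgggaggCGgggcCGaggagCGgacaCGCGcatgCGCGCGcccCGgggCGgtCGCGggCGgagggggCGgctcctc
Alb upstream, 2 CpG (chr5:90460620-90460869, strand +): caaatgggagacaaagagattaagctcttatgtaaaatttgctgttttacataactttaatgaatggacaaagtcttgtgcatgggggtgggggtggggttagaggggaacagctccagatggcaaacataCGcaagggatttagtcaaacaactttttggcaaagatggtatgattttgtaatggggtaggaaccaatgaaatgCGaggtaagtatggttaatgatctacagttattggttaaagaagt
Mup18 upstream, 0 CpG (chr4:61674095-61674344, strand -): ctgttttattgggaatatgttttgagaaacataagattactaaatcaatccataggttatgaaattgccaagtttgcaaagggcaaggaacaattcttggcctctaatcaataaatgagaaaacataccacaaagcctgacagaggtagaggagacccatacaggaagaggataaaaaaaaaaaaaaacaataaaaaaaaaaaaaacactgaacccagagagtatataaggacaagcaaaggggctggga
These 3 stretches show the range among the genes printed, and no binding or methylation was measured here.

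**Figure D5:**
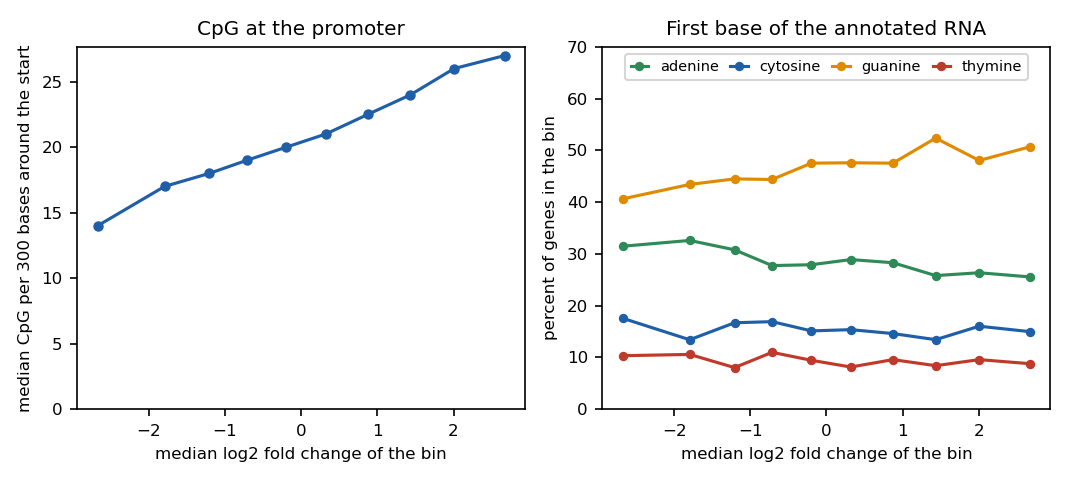
Left, the median number of CpG in the 300 bases around the annotated start for 10 equal bins of genes ordered by log2 fold change, rising from 14 to 27; right, the percent of genes in each bin whose annotated RNA begins with each base. The 7746 genes tested with 1 annotated start are shown, and points stand at each bin's median log2 fold change.

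The direction was compared with the other libraries of the study, which share no sample with the 6 libraries described. In set 3C 4167 of 11156 genes were higher (37.4%) and 3838 lower (34.4%), in set 3D 3842 of 10822 were higher (35.5%) and 3406 lower (31.5%), and at 18 months 4365 were higher (33.3%) and 3968 lower (30.2%). Of the 3824 genes higher at 2 months and tested in set 3C, 3368 were higher there as well and 21 were lower. Of 3668 lower genes 3106 were lower there and 10 were higher. In set 3D the counts were 3237 of 3747 higher with 11 opposite, and 3020 of 3626 lower with 4 opposite. List medians in sets 3C and 3D and at 18 months were 2.73, 3.17 and 2.65 for mitochondrially encoded genes, -2.96, -3.11 and -3.16 for cytosolic ribosomal proteins, and 1.90, 2.27 and 1.61 for insulin and growth hormone signalling.

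Some lists, drug-metabolism genes among them, had other values in sets 3C and 3D, although these are also liver at 2 months. The median for cytochromes P450 was -0.76 here, -0.60 at 18 months, and -1.48 and -1.41 in sets 3C and 3D. For UDP-glucuronosyltransferases it was -0.57 here, -0.40 at 18 months, and -1.69 and -1.62 in the sets. Lists outside drug metabolism differed too. Major urinary proteins were at -1.76 here, -1.28 at 18 months, and -2.83 and -2.39 in the sets. Bile acid genes were at -0.43 here, -0.43 at 18 months, and -1.09 and -0.85 in the sets. Cyp2e1 was at -0.08 here and -0.30 at 18 months, but at -1.75 and -1.50 in sets 3C and 3D. Ugt2b1 had 241, 168 and 243 CPM in the all-capped and 1203, 522 and 969 CPM in the captured libraries, at 2.05 ± 0.27 (SE, edgeR adjusted p = 4.44e-06), and was at 2.35 at 18 months, -0.47 in set 3C and -0.06 in set 3D. The differences between sets were not tested, since each set was counted and fitted in its own table.

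The captured difference changed with age for few genes. The interaction of age and capture, fitted over the 12 libraries of 2 and 18 months, passed for 2 of the 13124 genes by edgeR's quasi-likelihood test with Benjamini-Hochberg adjustment. None of the genes named above was among them. A p that misses the threshold does not show that values at both ages were equal.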

How the data were processed

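The study measured liver RNA after capture of all capped or of NCIN-capped RNAs, in 3 libraries of each at 2 months. The authors deposited a table of whole-number read counts per gene, not normalized, for 55416 mouse genes, 17612 fly genes and 4 spike-ins. Per the submitters' processing notes, which give no roles, Trim Galore 0.6.6, STAR 2.7.6a, featureCounts 2.0.1 and Salmon were used with builds GRCm39 and BDGP6. Strand use is not given in the sources used here. All columns carried a library name, and 0 were left unmapped. Symbols were found for 52083 mouse identifiers. The deposited transcript table was not used.

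Library sizes and tests used mouse genes only. Genes that passed filterByExpr by group entered edgeR 4.0.16 (R 4.3.3) with TMM factors and its quasi-likelihood test, fitting the 12 libraries of 2 and 18 months together without a block, with Benjamini-Hochberg adjustment and a threshold of 0.05. Sets 3C and 3D were fitted separately. The test of captured against all-capped libraries was tested on simulated data, with 200 of 13124 genes changed by 1.5 on the log2 scale. It recovered 45.5% of them (69.05% of the 126 with a mean of at least 50 counts) and called 7 unchanged genes, so changes of this size can be missed. In the data 61.4% of genes were called, a far larger share than was changed in the simulation. Its recovery and its false calls therefore need not carry over to this comparison. Alternatives were DESeq2 1.42.0, other scalings and filters, a 2-fold minimum, a replicate block, only the 6 libraries and leaving out each library.

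Replicate pairs had a chi-square per degree of freedom of 31.0 to 53.0, so no 2 libraries agreed within sampling noise. Captured and all-capped libraries with the same number in the labels had deviations from their group means that correlated at 0.25, 0.19 and 0.15, the best match in each case. These libraries were treated as paired only in the alternative fit with a replicate block. Unless a block is named, the differences, SEs and adjusted p-values printed come from the fit without it. Blocked values are given where they change the call of a named gene, move a list's count by over 1.5 times or end a count of 0.

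Genes and lists were chosen with earlier results of these data known. The rule named the 8 genes highest and the 8 lowest in log2 fold change among called genes whose groups did not overlap and whose mean reached 50 counts, leaving out unnamed loci. It further named the 2 highest, 2 lowest and 2 most abundant of each list and the 10 most abundant in each group. Genes outside it are said to be chosen after their values were seen. Promoter sequences and locus types come from RefSeq GRCm38.p6, so no coordinates of the build of the counts are given. Some genes that the rule names are not reported here.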

Additional observations from a re-analysis of the deposited data

Results flagged for a closer look

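Rac1 and Oaf were picked out because their captured difference changed with age, and they were chosen after their values were seen. Rac1, a small GTPase of the actin cytoskeleton, had 21.4, 11.3 and 26.9 CPM in the all-capped and 74.3, 74.7 and 81.6 CPM in the captured libraries at 2 months. The groups did not overlap, and the log2 fold change was 1.95 ± 0.26 (SE, edgeR adjusted p = 4.75e-06). At 18 months it was -0.69, and the change from 2 to 18 months was -2.64 ± 0.36 (SE, edgeR adjusted p = 0.00592). Its values in sets 3C and 3D, both at 2 months, were -1.16 and -1.80, of the sign seen at 18 months. Oaf, a secreted protein, had 43.1, 51.3 and 122.7 CPM in the all-capped and 105, 148 and 159 CPM in the captured libraries at 2 months. The groups overlapped, and the log2 fold change was 0.92 ± 0.30 (SE, edgeR adjusted p = 0.0126). Without all-capped replicate 1 or 2 the difference at 2 months no longer passed (edgeR adjusted p = 0.066 and 0.0693). At 18 months it was -2.86, a change of -3.79 ± 0.43 (SE, edgeR adjusted p = 0.000924), and in sets 3C and 3D it was -1.39 and -2.01. In both genes the libraries of 2 months described here therefore stand apart in sign from the other 3 sets, including the 2 sets of the same age.

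Fly genes, which the comparison leaves out, held 38.05% ± 3.51 of the counts in captured libraries against 12.2% ± 2.24 in all-capped libraries (SD, n = 3). The labels do not say where the fly RNA came from.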

How the results depend on the processing

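Scaling decides the 2 counts. Against 4186 higher and 3866 lower, scaling to the 0% spike-in gave 12202 and 12, to the spike-in total 10393 and 129, to fly genes 747 and 6403, and library size alone 2243 lower. Under DESeq2, other filters, a 2-fold minimum, only the 6 libraries and the replicate block both counts stayed within 1.5 times of these values. Without 1 library the counts ran from 3526 to 4026 higher and from 3518 to 3715 lower. With the replicate number as a block, which pairs the libraries, 4527 were higher and 4149 lower. The block changed no call of the 118 genes named, and DESeq2, no filter and the fit of only the 6 libraries changed none either. With at least 10 counts required in each of the 6 libraries, only 110 of the 118 were tested, and their calls did not change. Under the other scalings 5 to 36 of the 118 genes no longer passed the threshold. Genes that passed in the opposite direction are not in these numbers, and with the 0% spike-in only 12 of all genes tested were lower. Of 51 lists, 2 changed sign relative to all genes when 1 library was left out. Solute carriers ran from -0.0411 (without all-capped replicate 1) to 0.1949, and stellate cell markers from -0.0957 (without all-capped replicate 3) to 0.465. Among the other lists described, beside the Zfp genes, the medians relative to all genes that moved by over 1.5 times without 1 library were those of cholesterol synthesis (-0.52, and -0.32 without all-capped replicate 2 and -0.23 without captured replicate 2), peroxisomal genes (-0.29, and -0.19 without captured replicate 3), glycogen metabolism (0.22, and 0.34 without all-capped replicate 3 and 0.37 without captured replicate 1), Kupffer cell markers (-1.76, and -1.16 without all-capped replicate 1), endothelial markers (0.21, and 0.02 without all-capped replicate 1, 0.04 without captured replicate 2 and 0.39 without captured replicate 1) and cholangiocyte markers (-1.16, and -0.70 without all-capped replicate 2). The cause was not tested. Transcript length was not analysed, and its part in the differences was not tested. The most shallow library had 11130984 mouse counts, and the sources used here name no molecular identifiers, so counts need not be independent molecules. The ratio to all-capped RNA rests on 3 libraries a side.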

Other observations

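Long non-coding RNAs and small loci gave a further view of captured RNA. Tug1, a nuclear long non-coding RNA, had 7.47, 3.41 and 4.62 CPM in the all-capped and 112, 55.6 and 71.9 CPM in the captured libraries, a difference of 3.94 ± 0.36 (SE, edgeR adjusted p = 4.32e-08). Malat1, also nuclear, went the other way, with 26.8, 10.5 and 18.1 CPM in the all-capped and 5.04, 3.78 and 5.60 CPM in the captured libraries, at -1.93 ± 0.49 (SE, edgeR adjusted p = 0.00251), although it no longer passed with library size alone. Gas5, which hosts small nucleolar RNAs, was at -3.10 ± 0.44 (SE, edgeR adjusted p = 8.29e-06), and Snhg8, another host gene, at -4.35 ± 0.27 (SE, edgeR adjusted p = 5.61e-10). Of 12 tested host genes named Snhg, 4 (33.3%) were lower and none higher (median -0.93). Over all genes tested 29.5% were lower and 31.9% higher, so the lower share was near that of all genes.

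Named pseudogenes were lower in 64 of 99 and higher in 8 (median -2.09), and 5 were higher without all-capped replicate 2. Their summed level was 1584 to 2178 CPM in all-capped and 5074 to 7024 CPM in captured libraries. A single locus, Tmem250-ps, held most of it, with 1422, 1072 and 973 CPM in the all-capped and 6818, 6344 and 4890.0 CPM in the captured libraries, at 2.38 ± 0.20 (SE, edgeR adjusted p = 2.34e-08). Among 33 immunoglobulin and T-cell receptor V segments, 7 (21.2%) were lower and none higher (median -3.13), against 29.5% lower and 31.9% higher over all genes tested.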
